A study of Arabidopsis thaliana with 29 samples.

Results

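On day 12 without water, whole Arabidopsis thaliana plants labelled pp7l were compared with wild-type Col0 plants. The comparison covers 16882 of the 33681 loci in the expression table, namely every locus that reached 1 TPM (transcript abundance relative to all transcripts of a library) in at least 3 of the 6 libraries, and 6 of the 29 libraries of the series. The study measured total RNA of whole plants by Illumina sequencing in Col0 and pp7l after 0, 6, 9, 12 and 15 days (D) without water. Seedlings were grown on plates for 7 days and on soil for 2 more weeks, under 16 h of light and 8 h of dark at 22 °C, and watering stopped when the plants were 3 weeks old. The Col0 12 D and pp7l 12 D groups held 3 libraries each, as did the Col0 0 D and pp7l 0 D groups that are used here as the starting point. The sample labels call the mutant allele pp7l-2 and the description of the series calls it pp7l-1, so which allele was sequenced is uncertain and only pp7l is written here. The labels name no other altered gene in either genotype, and they do not say whether the libraries of a group came from separate plants or pools, so p-values measure only the spread between these libraries. No watered plants of the later days entered the comparison, so lack of water cannot be told apart from the 12 days of further age and development.

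PP7L (protein phosphatase 7-like) is a nuclear protein known in Arabidopsis for its part in chloroplast development. In drying plants the hormone abscisic acid (ABA) binds receptors of the PYR/PYL/RCAR family, the receptors then hold back the clade A protein phosphatases 2C (PP2Cs), and SnRK2 kinases that these phosphatases keep inactive switch on transcription factors for protective genes such as dehydrins and other late embryogenesis abundant (LEA) proteins. Severe drought also lowers the transcripts of the photosynthetic machinery, and old leaves are dismantled by senescence.

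The transcript of the PP7L gene itself (AT5G10900) was near 0 in Col0 and higher, not lower, in pp7l on day 12. Its level was 0.531, 0.0728 and 0.335 scaled TPM in the Col0 12 D libraries and 1.42, 1.47 and 1.38 in the pp7l 12 D libraries. The difference was 0.90 ± 0.16 (SE) on the log2 scale, with an adjusted p of 0.00136. PP7L passed the filter on low values through the pp7l libraries alone, which fixes its direction, so this p is no support for it. A lower level, as a loss of the gene's transcript would give, was not seen at these values near 0. A value summed over a whole gene does not show whether its transcript is intact, so the genotype was not checked by it, and "pp7l" means the libraries labelled pp7l throughout.

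Scaled TPM is the deposited TPM divided by 1 factor per library, the median ratio to the 6 libraries of day 12. All differences are pp7l minus Col0 on the log2(scaled TPM + 1) scale, on which the changes of weakly expressed genes are understated. A locus was called at a Benjamini-Hochberg adjusted p under 0.05 in limma, and read depth is unknown because the table holds no counts. Of the 16882 loci, 714 passed the filter through Col0 alone and 739 through pp7l alone, which fixes their direction. The same holds for every gene named below that stayed under 1 TPM in all libraries of 1 genotype, and its p-value is no support for its direction.

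Plastid loci held 54.3%, 45.6% and 31.5% of all TPM in the Col0 12 D libraries and 64.8%, 64.8% and 65.5% in the pp7l 12 D libraries. The pp7l mean was 21.2 percentage points higher and the groups did not overlap (exact two-sided permutation p = 0.1, the smallest p that 3 against 3 libraries can give). A single plastid locus, ATCG00020, held 28.5% ± 8.34 (SD, n = 3) of the TPM in Col0 and 27.0% ± 0.281 in pp7l. The remaining plastid loci together held 15.3% ± 3.20 (SD, n = 3) in Col0 and 38.0% ± 0.697 in pp7l, again without overlap (exact permutation p = 0.1). Col0 12 D replicate 3 stood apart, with 25.0% of its TPM on nuclear ribosomal RNA loci against at most 0.077% in the other 5 libraries. Leaving rRNA out, the plastid share was 47.3% ± 6.35 in Col0 and 65.0% ± 0.420 in pp7l (SD, n = 3). Since whole plants were sampled, fewer cells of a type and less RNA per cell cannot be told apart here or in any result below.

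**Figure D1:**
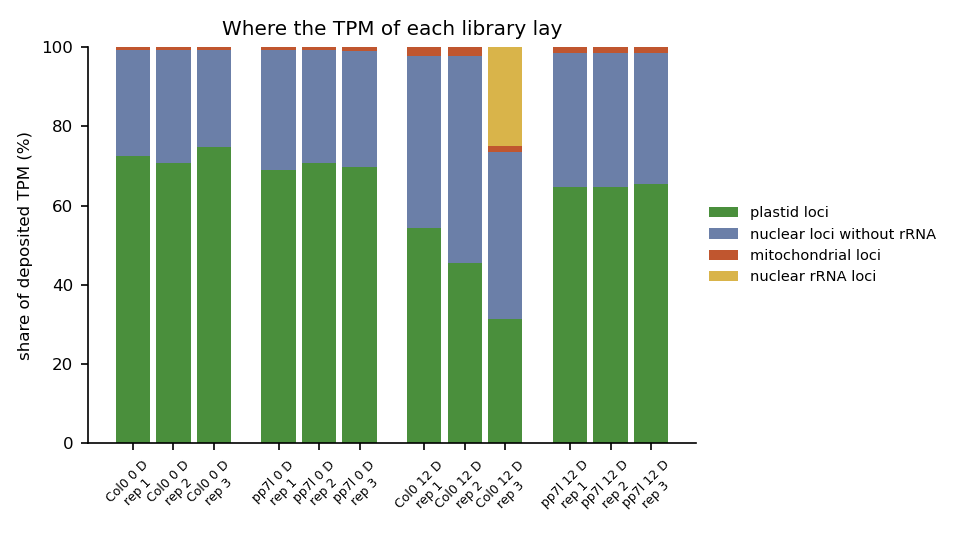
Share of deposited TPM (%) by class of locus in the 0 D and 12 D libraries of both genotypes, 1 stacked bar per library. The 3 pp7l 12 D libraries have plastid shares of 64.8% to 65.5%, the Col0 12 D libraries 31.5% to 54.3%, and the rRNA part is large in Col0 12 D replicate 3, at 25.0%.

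The genotypes differed across most of the transcriptome on day 12. Of the 16882 loci tested, 5120 (30.3%) were higher and 5135 (30.4%) were lower in pp7l, and the median difference over all loci was -0.01. Without scaling the split was 3598 higher and 6412 lower, around a median of -0.23, and with scaling to the summed nuclear TPM it was 5816 higher and 3859 lower. Without Col0 12 D replicate 3 it was 4766 higher and 4729 lower. The shares of 30.3% higher and 30.4% lower are the background for the list counts of day 12 given below. Differences of at least 2-fold were called at 2346 loci that were higher and 2076 that were lower, and differences of at least 8-fold at 143 and 175 loci. At 11484 loci (68.0%) the 3 libraries of one genotype lay wholly above those of the other. Protein-coding loci were called in near equal numbers, 4888 higher and 5033 lower of 16290, while of 74 loci annotated as pseudogenes 27 were higher and 7 lower, and of 102 long noncoding RNA loci 34 were higher and 19 lower. Among the loci tested, 27 were listed at 0 in all pp7l 12 D libraries and at 5 deposited TPM or more in every Col0 12 D library, and 24 of these were also listed at 0 in every Col0 0 D library. At 5 loci the reverse was found, with 0 in all Col0 12 D libraries and 5 deposited TPM or more in every pp7l 12 D library.

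**Figure D2:**
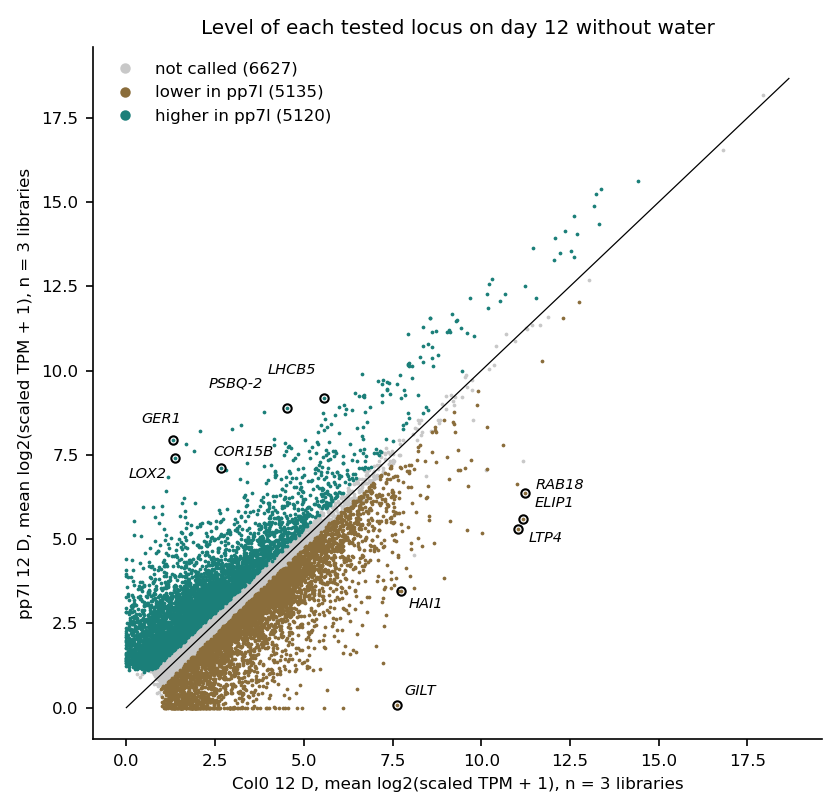
Mean log2(scaled TPM + 1) of each of the 16882 loci in Col0 12 D (x axis) and pp7l 12 D (y axis), 3 libraries each; the diagonal marks equal levels. The 5120 loci called higher in pp7l lie above the diagonal, the 5135 called lower lie below it, and 6627 were not called; the circled loci are far from the diagonal.

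The 12 loci that were higher in pp7l by the largest amounts were near 0 in the Col0 12 D plants, and several are known from leaf defence. GER1 (AT1G72610), a germin-like protein of the cell wall, was at 3.45, 1.11 and 0.680 scaled TPM in Col0 and 272, 198 and 269 in pp7l, a difference of 6.61 ± 0.32 (SE; adjusted p = 2.2e-06). LOX2, the chloroplast lipoxygenase at the start of jasmonate synthesis, was at 2.34, 0.947 and 1.69 scaled TPM in Col0 and 101, 210 and 231 in pp7l. Its difference was 6.04 ± 0.31 (adjusted p = 2.5e-06). For both genes every pp7l library was far above every Col0 library. ESM1, which steers glucosinolate breakdown towards isothiocyanates, had a difference of 5.69 (1.72 to 4.84 scaled TPM in Col0, 187 to 205 in pp7l). MBP1, a myrosinase-binding protein, had one of 5.67 (0.448 to 2.51 against 88.9 to 132), and ACD6, an ankyrin-repeat membrane protein of salicylic acid defence, one of 5.31 (0.104 to 0.283 against 41.2 to 49.4). The remaining 7 of these 12 loci were PCC1, AT2G45180, AT1G52000, DR4, ECS1, AT1G72416 and AT5G42530, with differences of 5.17 to 6.14. DR4 is a protease inhibitor first described as repressed by drought.

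The 12 loci that were lower in pp7l by the largest amounts stood high in Col0 on day 12 and were low or listed at 0 in pp7l. GILT (AT4G12960), a thiol reductase of the family named for a lysosomal enzyme of mammals, was at 128.5, 189 and 315 scaled TPM in Col0 and was listed at 0, 0 and 0.173 in pp7l. DELTA-VPE, a vacuolar processing enzyme known from the seed coat, was at 45.6, 68.4 and 101 scaled TPM in Col0 and was listed at 0 in all 3 pp7l libraries, as were AT4G15750 (29.2, 50.6 and 66.3 in Col0) and AT5G38160 (16.9 to 89.5). SAG29, the sugar exporter SWEET15 of senescing leaves, was at 93.5, 159 and 225 scaled TPM in Col0 and 0.579, 3.45 and 1.28 in pp7l, a difference of -5.90 ± 0.40 (adjusted p = 6.2e-06). LTP4, a lipid transfer protein, was at 1645, 2087 and 2639 scaled TPM in Col0 and 26.5, 49.8 and 43.1 in pp7l (-5.72 ± 0.24, adjusted p = 1.21e-06). These 2 genes were low in every pp7l library. ELIP1, an early light-induced protein that binds chlorophyll under stress, was at 1675, 2344 and 3068 scaled TPM in Col0 and 23.9, 202 and 21.0 in pp7l (-5.57 ± 0.73, adjusted p = 0.000208), so pp7l replicate 2 was well above the other pp7l libraries and still far below Col0. The other lower loci were AT4G12870, GASA3, RAP2.6, LEA7 and RAB18, with differences of -5.96 to -4.86; RAP2.6 is a transcription factor of the ethylene response factor family and GASA3 a small gibberellin-regulated peptide. Where all 3 pp7l libraries are listed at 0 no fold is given.

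**Figure D3:**
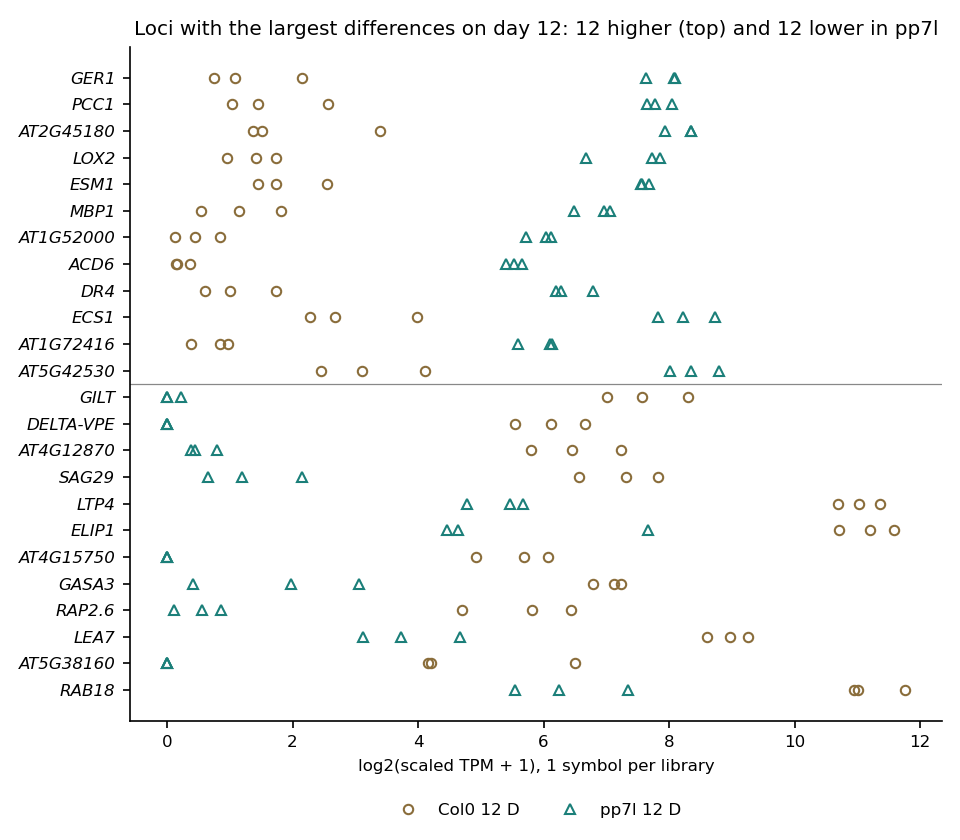
Level of the 24 loci with the largest differences on day 12, as log2(scaled TPM + 1), 1 symbol per library (circles Col0, triangles pp7l). In the upper 12 rows all pp7l libraries lie to the right of all Col0 libraries, and in the lower 12 rows to the left.

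Nuclear genes of photosynthesis were higher in pp7l almost without exception. Of the 20 light-harvesting chlorophyll-binding proteins, the antenna of both photosystems, 19 were higher and none was lower, with a median difference of 2.54 against -0.01 over all loci. LHCB5, a minor antenna protein of photosystem II (PSII), was at 65.3, 40.9 and 38.7 scaled TPM in Col0 and 522, 643 and 599 in pp7l, a difference of 3.61 ± 0.19 (adjusted p = 2.75e-06). LHB1B1, LHCB6 and LHCB4.2 followed, with differences of 3.26, 3.20 and 3.20, and the groups were fully apart for all 4. LHCB4.3, the member that was not called, was at 8.76, 9.38 and 6.603 scaled TPM in Col0 and 10.4, 8.91 and 9.92 in pp7l (0.23, adjusted p = 0.203). The copies of the major antenna gene are nearly identical, so reads can be split among LHB1B1 and its paralogs and single values there are uncertain.

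All 29 measured nuclear subunits of the photosystems and the electron transport chain were higher in pp7l, by 0.89 to 4.37 with a median of 2.63. PSBQ-2, an extrinsic subunit next to the oxygen-evolving centre of PSII, was at 29.3, 18.9 and 19.3 scaled TPM in Col0 and 414, 511 and 512 in pp7l, a difference of 4.37 ± 0.17 (adjusted p = 9.27e-07). FNR2, the reductase that passes electrons from ferredoxin to NADP, had a difference of 3.31 ± 0.16, and the photosystem I (PSI) subunits PSAN and PSAD-2 had differences of 3.18 ± 0.20 and 3.05 ± 0.31. Every pp7l library was above every Col0 library for all 29.

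The dark reactions were higher with them. Of 21 measured enzymes of the Calvin-Benson cycle and carbonic anhydrases, 20 were higher and none was lower (median 1.89). RBCS1B, a small subunit of Rubisco, was at 3.45, 3.04 and 2.14 scaled TPM in Col0 and 58.0, 62.6 and 77.8 in pp7l (4.12 ± 0.16, adjusted p = 9.27e-07), and its neighbour RBCS2B had a difference of 3.30; these copies are near identical and their split is uncertain. The carbonic anhydrases CA1 and CA2 had differences of 3.02 and 2.82. CP12-1, a small regulator that ties 2 enzymes of the cycle together in the dark, was the member not called (0.12, adjusted p = 0.634). Among 11 photorespiratory enzymes 9 were higher, led by the phosphoglycolate phosphatase PGLP1 (2.83) and the peroxisomal hydroxypyruvate reductase HPR (2.38). The exceptions were the peroxisomal catalase CAT2, at 54.4, 72.1 and 75.5 scaled TPM in Col0 and 15.4, 29.3 and 22.3 in pp7l (-1.58 ± 0.22, adjusted p = 0.000282), and the glycine decarboxylase subunit GLDP2 (-0.53, adjusted p = 0.0162), whose call was lost without Col0 12 D replicate 2, Col0 12 D replicate 3 or pp7l 12 D replicate 1.

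Of 18 measured chlorophyll synthesis genes 15 were higher and 1 was lower (median 1.22), with PORB, a light-dependent protochlorophyllide reductase, at 30.1, 16.9 and 17.0 scaled TPM in Col0 and 159, 184 and 191 in pp7l (3.05 ± 0.21, adjusted p = 6.37e-06). Of 71 measured loci of the plastid genome, 67 were higher and none was lower, with a median of 1.98 and a range of 0.24 to 3.13. ATCG00430, the plastid locus with the largest difference, was at 316, 223 and 210 scaled TPM in Col0 and 2013, 2282 and 2179 in pp7l. Of 67 measured mitochondrial loci, 12 were higher and 10 lower (median -0.01), and this split turned to 7 higher and 24 lower without scaling and to 16 and 5 with nuclear scaling. Transcripts of organelles mostly lack stable poly(A) tails, and the part of RNA selection in their levels was not tested.

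Genes for taking chlorophyll apart were split. Of 11 measured, 5 were higher and 5 lower in pp7l (median -0.14), and 3 were higher without scaling. The pheophorbide a oxygenase ACD1, the enzyme that opens the chlorophyll ring in senescing leaves, was at 87.9, 93.0 and 99.4 scaled TPM in Col0 and 22.3, 26.4 and 27.1 in pp7l (-1.85 ± 0.11, adjusted p = 3.9e-06). NYE1, the magnesium dechelatase STAY-GREEN 1, was lower by 0.99 ± 0.12 on the log2 scale, at 22.0 to 25.3 scaled TPM in Col0 and 9.80 to 12.7 in pp7l. NYC1 and PPH, a chlorophyll b reductase and a pheophytinase, had differences of -0.58 and -0.57. CLH1, a chlorophyllase, went the other way, at 0.249 to 0.418 scaled TPM in Col0 and 7.41 to 16.4 in pp7l (3.33 ± 0.26, adjusted p = 1.08e-05). CLH1, 1 of the 5 higher members, passed the filter on low values through pp7l alone, which fixes its direction.

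Genes that mark ABA action and dehydration were mostly lower in pp7l. Of 20 measured, 17 were lower and 2 higher, with a median of -2.12. RAB18 (AT5G66400), a dehydrin, was at 2057, 1977 and 3468 scaled TPM in Col0 and 45.7, 161 and 75.0 in pp7l, a difference of -4.86 ± 0.41 (adjusted p = 1.74e-05). LEA7 was at 388, 499 and 608 scaled TPM in Col0 and 7.70, 24.5 and 12.3 in pp7l (-5.10 ± 0.34, adjusted p = 6.12e-06). For both, pp7l replicate 2 was the highest of its group and the groups were far apart. TSPO, a membrane protein that ABA induces, had a difference of -4.54. LTI78 and LTI65, better known as RD29A and RD29B, had differences of -2.36 and -3.47, and the dehydrins LTI30, COR47 and ERD10 had -4.37, -2.94 and -2.30; these 5 were named after their values were seen, as was every uncalled member or gene copy named here outside the rule given with the methods. The list was made with earlier results of these data known, so its direction is not independent evidence.

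The 2 exceptions were cold-response genes with near-identical neighbours. COR15B, which protects chloroplast membranes in the cold, was at 6.72, 4.56 and 4.95 scaled TPM in Col0 and 134, 133 and 146 in pp7l (4.45 ± 0.14, adjusted p = 9.27e-07), whereas its neighbour COR15A was at 657, 548 and 586 in Col0 and 482, 503 and 519 in pp7l (-0.25, adjusted p = 0.0977). Without scaling COR15A was called lower (-0.515). KIN2 was at 304, 239 and 209 scaled TPM in Col0 and 1231, 1205 and 1119 in pp7l (2.25 ± 0.15, adjusted p = 6.12e-06), whereas its neighbour KIN1 was at 216, 168 and 172 in Col0 and 60.5, 53.1 and 43.9 in pp7l (-1.80 ± 0.15). How the quantification split reads within each pair is unknown, so the single values of these 4 genes are uncertain.

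The promoters of the 2 ABA markers and 2 photosynthesis genes described above are shown because these genes moved apart by the largest amounts within their lists. Each is the window of 250 bases before the annotated start in RefSeq's TAIR10.1 assembly, written 5′ to 3′ on the gene's strand. Capitals mark every match to ACGTG (core of the ABA response element and the G-box), CCGAC (core of the dehydration response element) or GATAA (core of the I-box of light-regulated genes) on either strand, so a match on the other strand appears as the reverse complement.
RAB18, chr5:26519448-26519697, minus strand: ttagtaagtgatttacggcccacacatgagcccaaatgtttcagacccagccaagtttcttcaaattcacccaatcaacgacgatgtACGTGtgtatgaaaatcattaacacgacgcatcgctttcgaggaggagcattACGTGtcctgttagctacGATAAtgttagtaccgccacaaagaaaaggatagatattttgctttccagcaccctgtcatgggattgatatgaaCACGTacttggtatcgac
LEA7, chr1:19619474-19619723, plus strand: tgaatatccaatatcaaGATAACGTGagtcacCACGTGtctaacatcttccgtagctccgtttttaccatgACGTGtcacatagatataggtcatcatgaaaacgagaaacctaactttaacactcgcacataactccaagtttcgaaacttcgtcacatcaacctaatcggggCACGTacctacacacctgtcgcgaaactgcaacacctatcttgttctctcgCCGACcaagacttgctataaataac
PSBQ-2, chr4:2673244-2673493, minus strand: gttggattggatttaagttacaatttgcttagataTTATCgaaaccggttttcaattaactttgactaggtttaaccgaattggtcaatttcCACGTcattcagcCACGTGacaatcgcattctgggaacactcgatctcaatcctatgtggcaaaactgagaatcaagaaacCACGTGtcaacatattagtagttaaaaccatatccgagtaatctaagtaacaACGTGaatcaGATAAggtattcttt
LHCB5, chr4:6407757-6408006, plus strand: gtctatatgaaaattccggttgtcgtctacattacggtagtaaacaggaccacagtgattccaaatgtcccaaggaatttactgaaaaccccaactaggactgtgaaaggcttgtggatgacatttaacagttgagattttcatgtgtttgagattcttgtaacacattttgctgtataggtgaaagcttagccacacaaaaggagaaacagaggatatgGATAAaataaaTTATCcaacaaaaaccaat
The RAB18 window held 3 matches to ACGTG and LEA7 held 5, where a CACGTG palindrome counts once on each strand, and LEA7 held 1 match to CCGAC. PSBQ-2, which was higher in pp7l, held 6 matches to ACGTG, more than either ABA marker, and LHCB5 held none. GATAA had 1 match each in RAB18 and LEA7 and 2 each in PSBQ-2 and LHCB5.

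Over all 16289 promoters of tested nuclear protein-coding loci, 23.8% held ACGTG, 13.3% held CCGAC and 55.7% held GATAA. The letters ACGTG were found in 699 of 2028 promoters (34.5%) of loci lower by at least 2-fold in pp7l. Of loci lower by at least 8-fold, 69 of 172 (40.1%) held ACGTG. For loci higher in pp7l, ACGTG was in 481 of 2199 (21.9%) at 2-fold or more and in 45 of 138 (32.6%) at 8-fold or more. It was in 12 of the 20 ABA and dehydration markers (60%), 6 of the 9 PP2Cs (66.7%), 8 of the 20 light-harvesting genes (40%) and 11 of the 29 photosystem and electron transport genes (37.9%). CCGAC was in 9 of the 20 ABA and dehydration markers (45%). GATAA was in 16 of the 20 light-harvesting genes (80.0%) and in 95 of 138 promoters (68.8%) of loci higher by at least 8-fold. Of loci higher by at least 2-fold 57.6% held GATAA. For lower loci the share was 53.7% at 2-fold or more and 54.1% at 8-fold or more. These are matches of letters in a window and were not tested.

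In the core of ABA signalling, all 9 clade A PP2Cs, the negative regulators whose transcripts ABA itself raises, were lower in pp7l, with differences of -4.29 to -1.12 and a median of -1.97. Of the 9, 1 passed the filter on low values through Col0 alone, which fixes its direction. HAI1 was at 182, 209 and 259 scaled TPM in Col0 and 7.33, 15.4 and 8.64 in pp7l (-4.29 ± 0.24, adjusted p = 3.25e-06). ABI2, HAI3 and HAI2 had differences of -2.96, -2.93 and -2.53, and every pp7l library was below every Col0 library for all 4. Of the 7 measured receptors 6 were higher and 1 lower (median 0.86). The higher count was 4 without scaling, without Col0 12 D replicate 1 or without pp7l 12 D replicate 1, and 5 without pp7l 12 D replicate 2. With all 29 libraries in the fit 3 were higher and 0 lower. Of the higher members, PYL4 passed the filter on low values through pp7l alone, which fixes its direction. PYL4 was at 0.687, 0.441 and 0.580 scaled TPM in Col0 and 14.3, 6.85 and 10.9 in pp7l (2.84 ± 0.23, adjusted p = 1.34e-05), and PYL1 and PYR1 had differences of 1.61 and 1.23. PYL7 was the lower one (-0.60, adjusted p = 0.00471). Of 9 measured kinases and transcription factors 4 were lower and 3 higher, against 30.4% lower and 30.3% higher over all loci. The lower ones included the kinase OST1 (-0.73), the G-box factor GBF3 (-1.44) and ABF2 (-1.35). The 3 higher members, SNRK2.2, SNRK2.3 and ABF1, differed by 0.27 to 0.34. All 3 of these calls were lost without scaling, and those of SNRK2.2 and ABF1 also without Col0 12 D replicate 2, Col0 12 D replicate 3 or any 1 of the pp7l 12 D libraries.

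Of 12 measured genes of ABA synthesis, breakdown and transport 7 were lower and 3 higher. NCED3, the dioxygenase of the committed step under drought, was at 31.5, 45.3 and 68.9 scaled TPM in Col0 and 2.96, 3.597 and 3.92 in pp7l (-3.40 ± 0.24, adjusted p = 8.12e-06), and AAO3, the aldehyde oxidase of the last step, had a difference of -2.28. The higher ones included CYP707A3, the hydroxylase that degrades ABA (1.81 ± 0.17), and BGLU18, a glucosidase that releases ABA from its glucose ester, at 18.4, 9.72 and 14.7 scaled TPM in Col0 and 284, 538 and 534 in pp7l (4.88 ± 0.28, adjusted p = 3.39e-06). The third, the exporter ABCG25, had overlapping groups (0.37, adjusted p = 0.0496), and its call was lost without Col0 12 D replicate 2, Col0 12 D replicate 3 or any 1 of the pp7l 12 D libraries.

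Transcription factors of the drought response followed the ABA markers. Of 13 measured NAC, HD-Zip and MYB factors 10 were lower and 2 higher (median -2.05). RD26, an ABA-induced NAC factor, was at 102, 91.2 and 138 scaled TPM in Col0 and 4.62 to 9.67 in pp7l (-3.94 ± 0.25, adjusted p = 4.76e-06). NAC019, NAC032 and the homeodomain factor HB-12 had differences of -3.48, -3.44 and -3.32. HB6 and HB5, homeodomain factors of ABA responses, were the higher ones (1.37 and 1.45). Of 5 measured CBF and DREB2 factors 4 were lower, led by DREB2C (-2.10) and the dehydration factor DREB2A (-1.82), while CBF2, a factor of cold acclimation, was at 0.615 to 2.41 scaled TPM in Col0 and 15.8 to 18.5 in pp7l (3.13 ± 0.27, adjusted p = 2e-05).

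Of 20 heat shock proteins and factors 15 were measured, and 6 of these passed the filter on low values through Col0 alone, which fixes their direction. Of the 15, 14 were lower in pp7l and none was higher. HSP70 (AT3G12580), a cytosolic chaperone, was at 153, 232 and 354 scaled TPM in Col0 and 13.9, 30.3 and 10.6 in pp7l (-3.73 ± 0.39, adjusted p = 5.43e-05). The small heat shock protein HSP17.4 was at 4.33, 5.79 and 20.3 scaled TPM in Col0 and was listed at 0 in every pp7l library. The chloroplast small heat shock protein HSP21 and the heat shock factor HSFA2 had differences of -2.06 and -1.96. With loci kept only from 5 TPM upwards, fewer members were tested and 6 were called lower.

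Osmolyte genes gave smaller contrasts. Of 8 measured genes of proline metabolism 4 were lower and none was higher, with P5CS2, a synthase of the first step, at 52.1, 60.9 and 61.5 scaled TPM in Col0 and 12.2, 19.1 and 14.2 in pp7l (-1.89 ± 0.16, adjusted p = 1.83e-05). Its stress-induced sister P5CS1 was at 106, 86.4 and 107 scaled TPM in Col0 and 47.5, 85.5 and 80.1 in pp7l (-0.52, adjusted p = 0.0587). P5CS1 was called lower without scaling (-0.787) and without pp7l 12 D replicate 2 (-0.676). Among 6 measured genes of galactinol and raffinose synthesis 2 were higher and 2 lower, with 1 higher without Col0 12 D replicate 2 or pp7l 12 D replicate 2. SIP1, a raffinose synthase, had a difference of -1.84 ± 0.18. Lipid transfer proteins were split as well, with LTP4, LTP6 (-3.63) and LTP3 (-1.85) lower and LTP5 (0.95) and LTP2 (0.75) higher; LTP3 and LTP4 are neighbours with similar sequences.

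Senescence genes were mostly lower in pp7l, 9 of 15 measured with 4 higher (median -1.23). Beside SAG29, SAG21, a small LEA-like protein of stressed and ageing leaves, was at 484, 593 and 610 scaled TPM in Col0 and 32.2, 76.4 and 38.8 in pp7l (-3.58 ± 0.28, adjusted p = 1.13e-05). DIN2 and SAG13 had differences of -3.03 and -3.02. The higher members were the lipase-like SAG101 (1.14), the asparagine synthetase ASN1 (1.00), the transcription factor WRKY53 (0.97, a call lost without Col0 12 D replicate 2) and NAC3 (0.51, lost without pp7l 12 D replicate 1). Of 9 measured autophagy genes 6 were lower and none higher, led by ATG8H, a ubiquitin-like protein of the autophagosome, at 39.7, 60.2 and 85.6 scaled TPM in Col0 and 5.36, 5.71 and 4.59 in pp7l (-3.27 ± 0.24).

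Of 13 measured starch and sugar genes 5 were higher in pp7l and 6 lower. Over all loci 30.3% were higher and 30.4% lower, and whether this list or the nitrogen list below departs from those shares was not tested. The sucrose synthases SUS1 and SUS3 were lower in pp7l by 2.87 ± 0.16 and 2.71 ± 0.14 on the log2 scale, with SUS1 at 153.5, 190.5 and 198 scaled TPM in Col0 and 22.3, 29.8 and 20.0 in pp7l. The beta-amylases BAM5 and BAM1 had differences of -3.86 and -2.50. Higher were SEX1, the glucan water dikinase that opens starch granules at night (2.37 ± 0.20), the starch-synthesis subunit APL1 (2.02) and the plastid beta-amylase CT-BMY (1.82). In nitrogen metabolism, 4 of 13 were higher, among them the chloroplast glutamine synthetase GS2 (1.64) and the ferredoxin-dependent glutamate synthase GLU1 (1.79), and 6 were lower, among them the cytosolic glutamine synthetase GLN1.3 (-1.71) and the nitrate reductase NIA2 (-1.55).

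Mitochondrial bypass genes were lower in pp7l. Of 9 measured genes of alternative respiration and mitochondrial stress 7 were lower and 1 higher (median -1.12). AOX1D, an alternative oxidase, was at 40.3, 42.7 and 62.0 scaled TPM in Col0 and 1.63, 6.22 and 1.08 in pp7l (-3.83 ± 0.41, adjusted p = 6.37e-05). AOX1A, the main stress-induced alternative oxidase, was at 55.0, 81.6 and 102 in Col0 and 16.0, 24.0 and 14.5 in pp7l (-2.06 ± 0.24), and the external NAD(P)H dehydrogenase NDB2 had a difference of -2.12. The groups did not overlap for these 3. Among superoxide dismutases, catalases and ascorbate peroxidases 4 were higher and 6 lower of 13, with the chloroplast iron superoxide dismutase FSD1 higher (2.35), CAT3 higher (1.82) and CAT1 lower (-1.85).

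Water channels were mostly higher in pp7l. Of 5 measured tonoplast aquaporins (TIPs) 4 were higher and 1 lower (median 2.16). TIP2 (AT3G26520) was at 7.75, 4.40 and 6.14 scaled TPM in Col0 and 136, 122 and 139 in pp7l, a difference of 4.26 ± 0.17 (adjusted p = 9.27e-07). DELTA-TIP and TIP2;2 had differences of 2.25 and 2.16, and the lower member was TIP3;1, an aquaporin of seeds, at 1.49 to 6.26 scaled TPM in Col0 and 0 to 0.0999 in pp7l. Of 12 measured plasma membrane aquaporins (PIPs) 8 were higher and 3 lower (median 0.81). PIP1C and PIP2A had differences of 2.2 and 1.83, and PIP1;4 was the strongest exception, at 131, 125 and 143 scaled TPM in Col0 and 44.4, 49.99 and 42.1 in pp7l (-1.53 ± 0.11). PIP2;5 and RD28 were also lower (-0.88 and -0.86), RD28 not without pp7l 12 D replicate 1.

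Growth genes were higher in pp7l where they differed. Of 14 measured expansins and primary wall genes 11 were higher and none was lower (median 0.72); without scaling the count was 7 higher and 1 lower. Of the 14, 2 passed the filter on low values through pp7l alone, where they are high. EXPA6, an expansin that loosens growing walls, was at 1.83, 0.391 and 0.257 scaled TPM in Col0 and 16.5, 16.3 and 15.8 in pp7l (3.33 ± 0.27, adjusted p = 1.56e-05), and XTH4, which cuts and joins xyloglucan, had a difference of 2.05. CYCD3;1, a cyclin that drives cells into division, was at 0.231, 0.0460 and 0.141 scaled TPM in Col0 and 6.49, 3.98 and 4.69 in pp7l (2.39 ± 0.18, adjusted p = 9.08e-06). CYCD3;1 also passed the filter on low values through pp7l alone, which fixes its direction.

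In jasmonate defence, 14 of 23 measured genes were higher in pp7l and 5 lower (median 1.09). Beside LOX2, the cyclase AOC2 of jasmonate synthesis was at 27.6, 13.9 and 10.2 scaled TPM in Col0 and 105, 163 and 182 in pp7l (3.13 ± 0.33, adjusted p = 5.88e-05). VSP2, a leaf storage and defence protein, was at 22.3, 18.1 and 24.0 in Col0 and 122, 288 and 335 in pp7l (3.36 ± 0.33). JAZ6, a repressor of the pathway, had a difference of 2.86, but its relatives JAZ1 and JAZ7 were lower (-1.17 and -1.86). So were CYP94B3 and CYP94C1, which oxidise the active hormone (-2.42 and -0.83), and the thionin THI2.1 (-1.69).

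Glucosinolate genes gave one of the most even contrasts. Of 16 measured synthesis genes 14 were higher in pp7l and none was lower (median 1.45); 2 of the 16 passed the filter on low values through pp7l alone. MAM1, which extends the side chain of methionine, was at 1.72 to 2.84 scaled TPM in Col0 and 38.1, 40.8 and 39.2 in pp7l (3.65 ± 0.14, adjusted p = 9.27e-07). BCAT4, CYP83A1 and CYP79F1 of the same aliphatic pathway had differences of 3.39, 3.34 and 3.03. The myrosinases TGG1 and TGG2, which hydrolyse glucosinolates in wounded leaves, were both higher (2.27 and 0.87).

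Salicylic acid defence was divided, with 7 of 16 measured members higher and 7 lower (median 0.22). Without Col0 12 D replicate 2, Col0 12 D replicate 3 or pp7l 12 D replicate 2 the count was 3 higher and 6 lower, without pp7l 12 D replicate 3 it was 4 and 5, and without pp7l 12 D replicate 1 it was 7 and 4. PR1, an antimicrobial marker protein, was at 3.12, 0.696 and 0.355 scaled TPM in Col0 and 10.9, 50.3 and 10.5 in pp7l (3.18 ± 0.60, adjusted p = 0.00161), with pp7l replicate 2 the highest. Among the lower members, EDS16, the isochorismate synthase ICS1, was at 14.0, 9.02 and 6.05 scaled TPM in Col0 and 1.47, 3.52 and 1.85 in pp7l (-1.69 ± 0.30, adjusted p = 0.00118). PBS3, which adds glutamate to isochorismate, had a difference of -3.09, the exporter EDS5 one of -0.94 and the transcription factor CBP60G one of -1.37. FMO1, which makes N-hydroxypipecolic acid, was lower (-2.18, adjusted p = 0.0177), though pp7l replicate 2 at 8.14 scaled TPM was near the Col0 range of 9.24 to 12.2, and the call was lost without pp7l 12 D replicate 1 or 3.

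Circadian clock genes were more often lower than higher, 10 against 6 of 19 measured (median -0.82). The morning factors LHY and CCA1 had differences of -2.32 and -1.82, with LHY at 3.81, 7.47 and 11.7 scaled TPM in Col0 and 0.337, 1.32 and 0.344 in pp7l. ELF4, an evening gene, was at 19.8, 24.6 and 98.0 scaled TPM in Col0 and 4.09, 5.92 and 5.18 in pp7l (-2.64 ± 0.50, adjusted p = 0.00162), so Col0 replicate 3 was far above its group. PRR3, GRP7 and PCL1 were higher (1.47, 1.08 and 0.64). The call of GRP7 was lost with all 29 libraries in the fit, where 2 clock genes were higher and 10 lower. Without scaling 4 were higher and 12 lower. From 5 TPM upwards 16 were measured, with 6 higher and 7 lower (median -0.26). The hour of sampling is not given in the labels, so its part in these values was not tested.

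Pigment and surface genes showed no common direction. Among 11 measured anthocyanin and flavonoid enzymes 5 were higher and 2 lower (3 and 2 without Col0 12 D replicate 2), with F3H, an early step, lower (-1.22) and the glucosyltransferase UF3GT, a late step, higher (1.03). BAN, the enzyme of seed coat tannins, was at 2.93 to 6.405 scaled TPM in Col0 and was listed at 0 in all pp7l libraries. Of the related MYB activators, PAP1 was higher (1.38 ± 0.20) and MYB90 lower, at 48.7, 50.9 and 40.9 scaled TPM in Col0 and 11.2, 7.93 and 5.97 in pp7l (-2.39 ± 0.19). Among carotenoid genes 4 of 10 were higher and 4 lower, with NCED4, a carotenoid cleavage dioxygenase, higher (3.62) and the beta-ring hydroxylases BETA-OHASE 1 and BETA-OHASE 2 lower (-1.40 and -1.83). In photoprotection 3 of 7 were higher and 2 lower, the latter being ELIP1 and its relative ELIP2. Of 14 cuticular wax genes 4 were higher and 7 lower; without Col0 12 D replicate 3, pp7l 12 D replicate 1 or pp7l 12 D replicate 2 the count was 2 higher and 5 lower. KCS2, an elongase, was at 6.84 to 10.9 scaled TPM in Col0 and 1.59 to 2.14 in pp7l (-1.78 ± 0.18).

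Of 10 plastid RNA polymerase associated proteins 4 were higher and 1, the kinase-like FLN2, was lower (-1.19), and of 9 sigma factors and phage-type polymerases 3 were higher and 2 lower (2 and 1 without pp7l 12 D replicate 1), with differences of -2.41 to 1.48. The higher counts are near the 30.3% called higher over all loci, where 30.4% were lower. The stress-induced sigma factor SIGE was at 14.4 to 34.6 scaled TPM in Col0 and 2.80 to 5.02 in pp7l (-2.41 ± 0.29, adjusted p = 0.000141). PP7, the phosphatase for which PP7L is named, was at 7.28, 6.77 and 5.52 scaled TPM in Col0 and 9.39, 9.20 and 6.58 in pp7l (0.31, adjusted p = 0.122). Of 14 measured cytosolic ribosomal proteins 8 were lower and 1 higher, and 3 were lower with nuclear scaling.

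Markers of flowers and seeds had higher summed levels in Col0 on day 12. Of 13 floral organ identity genes 9 were measured, 7 of them only because they passed the filter on low values in Col0, so their direction was fixed by the filter and no count is read from them. The summed level of the whole list was 31.6 to 44.2 scaled TPM in Col0 and 5.67 to 6.51 in pp7l, with SEP3 at 6.05, 6.57 and 8.48 in Col0 and 0.688, 0.824 and 0.438 in pp7l. SHP2 was at 2.15 to 4.3 in Col0 and was listed at 0 in pp7l. Tapetum and pollen markers, of which 6 of 15 were measured and 2 of these through Col0 alone, summed to 36.3 to 43.9 scaled TPM in Col0 and 5.93 to 10.6 in pp7l. Seed and embryo markers, of which 2 were measured, both through Col0 alone, summed to 6.88 to 32.9 in Col0 and 1.45 to 1.82 in pp7l; 13 of the 15 given did not reach the threshold for testing. On day 0 the floral markers had summed to 7.19 to 8.37 in Col0 and 1.73 to 2.79 in pp7l. The part of these tissues in the other differences, the seed-linked DELTA-VPE, TIP3;1 and BAN and the LEA genes among them, was not tested.

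Of 5 measured regulators of flowering time 2 were higher and 3 lower in pp7l. FT, the mobile flowering signal, was at 9.38, 9.68 and 14.5 scaled TPM in Col0 and was listed at 0, 0.129 and 0 in pp7l. AGL8, the flower and fruit gene FUL, had a difference of -1.47. The floral repressors SVP and MAF1 were higher (1.6 ± 0.12 and 1.07 ± 0.15), with SVP at 18.1, 14.3 and 14.0 in Col0 and 47.3, 47.4 and 51.5 in pp7l.

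Root and guard cell markers gave mixed values. Summed root markers were at 11.7 to 15.4 scaled TPM in Col0 and 34.3 to 51.1 in pp7l, but 2 of 5 measured members were higher and 2 lower. Most of the sum was PYK10, a beta-glucosidase of endoplasmic reticulum bodies, at 0 to 0.927 in Col0 and 27.6 to 43.1 in pp7l. Summed guard cell markers were at 23.5 to 29.7 in Col0 and 14.2 to 17.5 in pp7l, and the potassium channel GORK had the largest difference (-1.71 ± 0.15). Of 6 measured members 2 were lower and 2 higher, and the higher calls dropped to 1 without Col0 12 D replicate 1 and to 0 without any other single library or without scaling. The share of roots or stomata in these results was not tested.

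Before water was withheld the genotypes already differed, though in other ways. On day 0, 2740 of the same 16882 loci (16.2%) were higher in pp7l and 3114 (18.4%) were lower. Of the 5120 loci higher on day 12, 747 (14.6%) were also higher on day 0, which is 27.3% of the loci higher on day 0, and 1219 (23.8%) were lower on day 0, which is 39.1% of the loci lower then. Of the 5135 lower on day 12, 955 (18.6%) were lower on day 0, which is 30.7% of those, and 758 (14.8%) were higher, which is 27.7% of those. The day 0 counts rest on single libraries and on the scaling. The total of 5854 calls dropped to 2680 without pp7l 0 D replicate 3, 3315 without pp7l 0 D replicate 1, 3493 without pp7l 0 D replicate 2 and 3863 without Col0 0 D replicate 1, and without scaling the split was 6397 higher and 1075 lower around a median of 0.31.

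The difference between genotypes itself differed between the days at 9285 loci, 4596 with a positive shift (27.2%) and 4689 with a negative one (27.8%); without scaling these were 2312 and 8438, around a median of -0.59. All 20 light-harvesting genes and all 29 photosystem and electron transport genes shifted upwards. On day 0, 17 of the 20 had been lower in pp7l (median -0.85) and 20 of the 29 (median -0.75); without scaling the day 0 counts were 6 and 12. PSBQ-2 had a difference of -0.96 (adjusted p = 0.00437) on day 0 and 4.37 on day 12, a shift of 5.34 (adjusted p = 2.17e-09). GER1 had a difference of 0.05 (adjusted p = 0.811) on day 0, and its shift was 6.55 (adjusted p = 1.69e-08).

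Among ABA and dehydration markers, 13 of 20 were already lower on day 0 and 1 was higher (median -0.94). Without scaling 10 were lower on day 0 (median -0.376), and with nuclear scaling 11 were (median -0.52). In 12 of the 20 the difference became more negative by day 12 and in 4 more positive. RAB18 had a difference of -0.30 (adjusted p = 0.574) on day 0 and a shift of -4.56 (adjusted p = 1.35e-05). Of the 9 PP2Cs 5 were lower on day 0, but only 1 without scaling or with nuclear scaling, and 8 shifted downwards (9 with either of these). Of the 7 receptors 6 shifted upwards, while without scaling 3 shifted upwards and 1 downwards. Tonoplast aquaporins had 4 of 5 members lower on day 0, and jasmonate genes 14 of 23; without scaling these were 2 and 9. On day 12, 4 and 14 members were higher. Conversely, 9 of 19 clock genes, 11 of 16 salicylic acid genes and 8 of 10 plastid polymerase associated proteins were higher on day 0 (medians 0.54, 0.92 and 1.33), and 14, 15 and 9 without scaling. PBS3, for instance, went from 1.89 on day 0 to -3.09 on day 12, a shift of -4.98 (adjusted p = 9.63e-07).

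**Figure D4:**
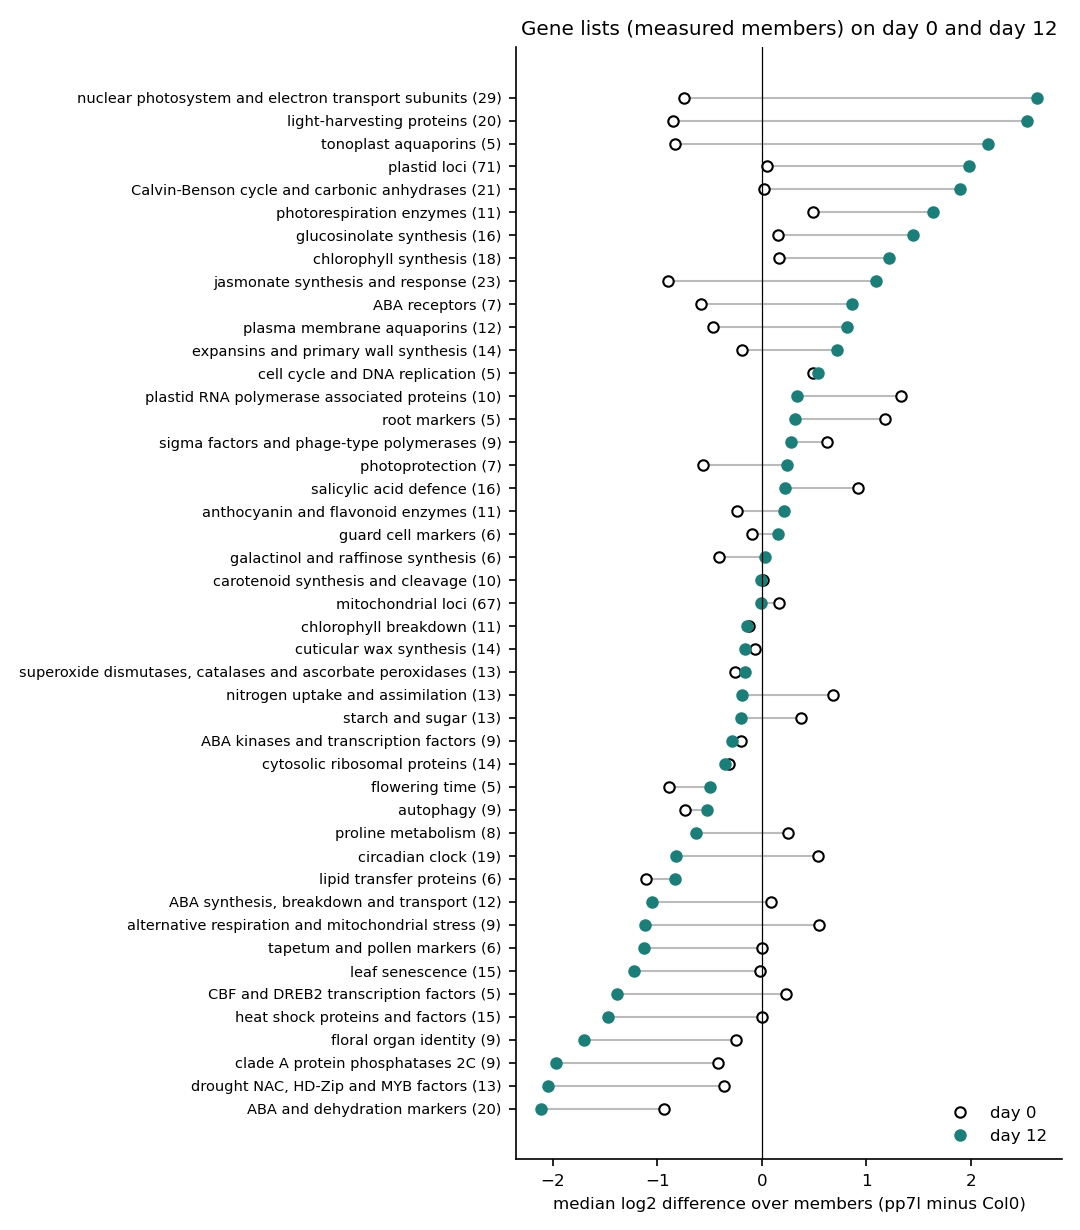
Median log2 difference (pp7l minus Col0) over the measured members of each list with at least 5, on day 0 (open circles) and day 12 (filled circles), with the number of members in brackets. Through Col0 alone passed 7 of 9 floral organ identity, 2 of 6 tapetum and pollen and 6 of 15 heat shock members. The filter fixes the direction of these members on day 12, so the day 12 medians of their lists are no support for a direction. Light-harvesting genes move from -0.85 to 2.54 and ABA and dehydration markers from -0.94 to -2.12. Without scaling these day 0 medians are -0.289 and -0.376.

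For most genes plotted by day, the Col0 means of day 9 and day 12 lay further apart than the pp7l means. These levels depend on the scaling factors, which ran from 0.106 to 1.23 over the 29 libraries. LHCB5 in Col0 was at 780 ± 81.3 scaled TPM (SD, n = 3) on day 9 and 48.3 ± 14.8 on day 12, and in pp7l at 1137 ± 148 and 588 ± 60.9. RAB18 in Col0 was at 38.6 ± 28.9 on day 9 and 2501 ± 839 on day 12, and in pp7l at 41.8 ± 27.6 and 93.8 ± 59.8. HAI1 in Col0 was at 11.3 ± 1.15 and 216 ± 38.8, and in pp7l at 4.25 ± 1.92 and 10.5 ± 4.36. On day 9 the genotypes thus lay close for RAB18, and by day 12 their groups no longer overlapped.

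LTP4 behaved differently from RAB18. It was already at 126 ± 19.9 scaled TPM (SD, n = 2) on day 6 and 779 ± 12.6 (SD, n = 3) on day 9 in Col0, against 30.7 ± 3.36 and 32.9 ± 4.69 in pp7l (n = 3). SVP stayed between 43.8 and 48.7 on average in pp7l on every day, while its Col0 mean was 84.1 on day 0, 48.2 on day 9, 15.5 on day 12 and 6.94 on day 15. These means rest on scaling factors of 0.334 to 0.428 in Col0 on day 0 and 0.971 to 1.03 on day 9. In pp7l the factors were 0.522 to 0.611 on day 0 and 0.831 to 1.01 on day 12. In deposited TPM the Col0 mean of SVP was thus lower on day 0 than on day 9, and the pp7l level was not even. On day 15 the pp7l mean of RAB18 was 146 ± 86.0 and that of HAI1 15.69 ± 7.61, against 1658 ± 188 and 499 ± 72.1 in Col0.

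**Figure D5:**
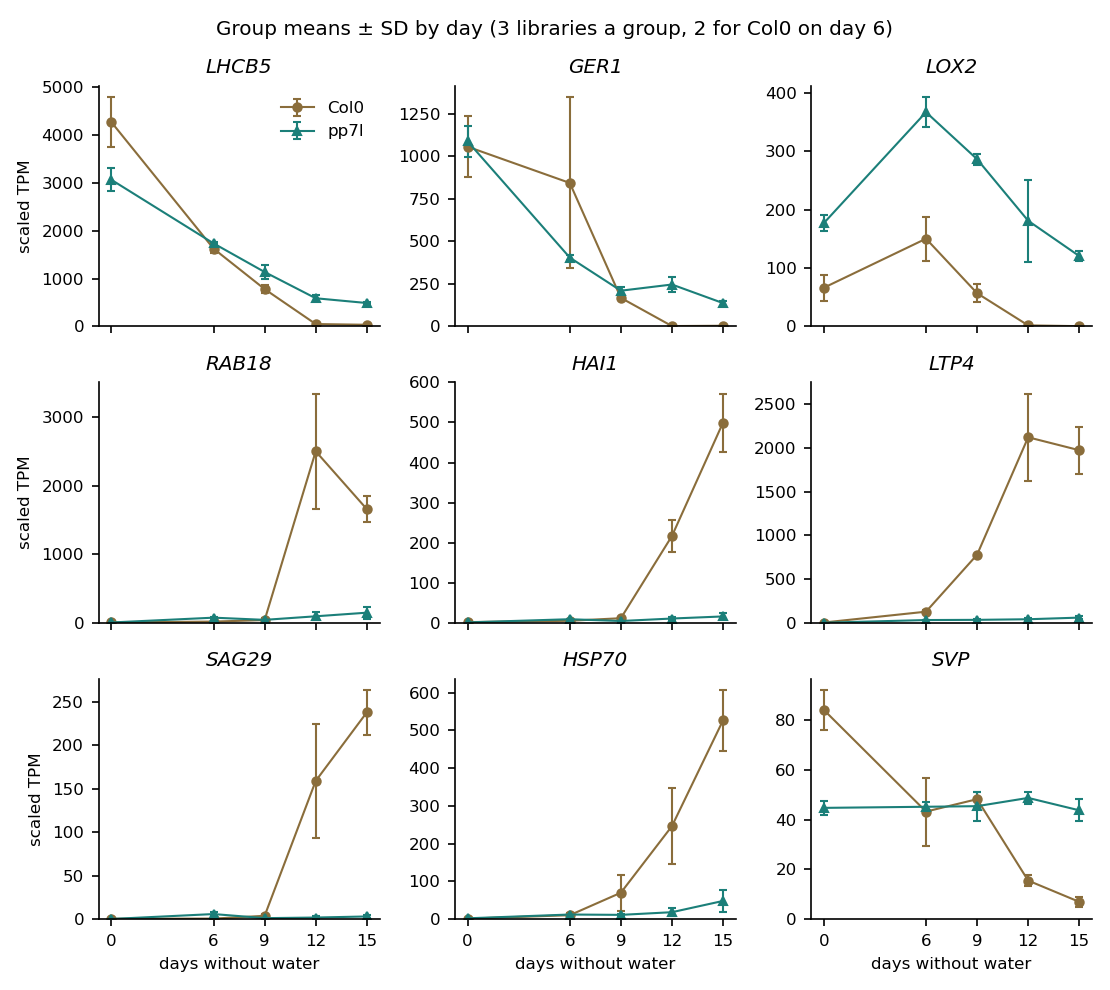
Mean scaled TPM ± SD (y axis, linear) of 9 genes by days without water (x axis) in Col0 and pp7l, with 3 libraries a group and 2 for Col0 on day 6. RAB18, HAI1 and SAG29 stand high in Col0 from day 12 and stay low in pp7l, whereas the means of LHCB5 are smaller on each later day in both genotypes and smallest in Col0 on days 12 and 15. The course of a gene between days, that of LHCB5 included, depends on the scaling factors.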

How the data were processed

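Transcript abundance was measured by RNA sequencing in whole plants. The table holds TPM values made by the authors; the submitters' processing notes name Trimmomatic, FastQC, Salmon and the build TAIR10, with versions not given in the sources used here. Loci were named from RefSeq's TAIR10.1 annotation, which held 32954 of the 33681 locus identifiers; the other 727 are organelle identifiers and stay unnamed. Whether strand was used is not given, so overlapping and antisense genes cannot be told apart.

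From the deposited TPM, loci with at least 1 TPM in 3 of the 6 libraries of day 12 were kept. Each library was divided by its median ratio to their geometric mean over 16362 loci above 0 in all 6, and log2(scaled TPM + 1) was fitted with limma 3.58.1 (R 4.3.3, intensity trend), 2 groups of 3, with Benjamini-Hochberg adjustment over all 16882 loci. The same loci were fitted on day 0, and over 12 libraries for the difference between the days. Single shares were compared with exact two-sided permutation tests. The scripts were tested on simulated data. Depth is unknown, so precision is given by the spread between libraries only.

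The text names the 12 loci with the largest difference in each direction (mean of at least 10 scaled TPM in 1 group, groups not overlapping), up to 4 members of each gene list with the largest differences, members that went against their list, and PP7L. The 46 lists were written from textbook knowledge; 582 of their 604 members were matched by symbol, and 22 were kept by the locus given, where the reference lists another symbol. The members and lists were chosen with earlier results of these data known. Alternatives were the scaling, filter, pseudocount, fit, replicate block and each library left out.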

Additional observations from a re-analysis of the deposited data

Results flagged for a closer look

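The difference between genotypes on day 12 was tested against that on day 0 in 1 limma fit. It differed at 9285 of the 16882 loci, with a positive shift at 27.2% and a negative shift at 27.8% of all loci. Of the 9285, 1977 were called in opposite directions on the 2 days. Opposite calls in the same libraries all but fix a called shift, so this count is no further support. Among gene lists whose medians lay at least 0.5 from 0 on opposite sides on the 2 days, the difference changed between the days for 20 of 20 light-harvesting genes, 29 of 29 photosystem and electron transport genes, 6 of 7 ABA receptors, 5 of 5 tonoplast aquaporins, 7 of 9 genes of alternative respiration, 12 of 19 clock genes and 19 of 23 jasmonate genes. These lists were picked by their medians in the same libraries, so high counts were built in and give no independent support. For the photosynthesis lists every shift was upwards, for the clock and alternative respiration lists every called shift was downwards, and for jasmonate genes 16 were upwards and 3 downwards. The day 0 medians depended on the scaling: without it and with nuclear scaling those of light-harvesting genes (-0.29 and -0.43), photosystem and electron transport genes (-0.19 and -0.33), ABA receptors (-0.10 and -0.21), tonoplast aquaporins (-0.28 and -0.42) and jasmonate genes (-0.34 and -0.49) kept their sign but lay less than 0.5 from 0. Without scaling the shift was called upwards for 19 light-harvesting genes, 28 photosystem and electron transport genes, 3 receptors and 11 jasmonate genes. These counts compare plants of different ages, and the share of plastid TPM and the floral markers described above moved between the same groups; their part was not tested.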

How the results depend on the processing

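From 5 TPM upwards, where fewer loci are tested, 6595 loci were called, 2753 of them higher, and 6047 differed between the days, 2804 with a positive shift. Leaving out 1 library gave 9043 to 10345 calls at 12 D (4514 to 5185 higher, 4513 to 5160 lower), 2680 to 5615 at 0 D (1124 to 2666 higher, 1556 to 2989 lower) and 8514 to 9477 between the days (4244 to 4639 positive, 4269 to 4838 negative). Scaling shifted the direction of calls: without scaling 6397 loci were higher and 1075 lower at 0 D, and 2312 shifts were positive and 8438 negative; with nuclear scaling 5320 were higher and 1357 lower at 0 D. Over all tested loci, same-numbered libraries deviated little together (correlations of -0.0653 to 0.0192 at 12 D and -0.1258 to 0.0841 at 0 D). Correlations over all loci do not show whether the numbers pair the libraries at some of them. With a replicate block 4921 loci were higher and 4950 lower at 12 D. At 0 D 3193 were called with the block, 1431 higher and 1762 lower, against 5854 without it. The cause of this drop was not tested. Of 183 genes in the text, 167 kept their direction and call in all 16 alternatives run at 12 D. LHCB4.3 and CP12-1, neither of them called, changed sign without scaling (-0.017 and -0.119), and CP12-1 also without pp7l 12 D replicate 3 (-0.017); without pp7l 12 D replicate 1 CP12-1 was called, at 0.381. TPM values carry no depth, so nothing can be said of counting error at low levels.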
